A study of Homo sapiens with 9 samples.

Results

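MicroRNA host genes are transcribed into long RNAs that carry microRNA hairpins in an intron or an exon. The host genes described here are those the deposited tables class as lncRNA, whose symbol begins with MIR and ends in HG with an optional digit, and whose mean of normalized reads was above 10 in both tables. Of the 51105 genes present in both tables, 70 fitted the name and 40 of them also passed the limit on the mean. They were thus chosen by that mean alone among the measured values. MIR7-3HG (14.4 and 11.3 in the PABPN and PABPC tables) and MIR217HG (27.3 and 13.5) lay just inside the limit, and MIR4422HG (10.8 and 6.76), MIR4432HG (11.95 and 7.04) and MIR1-1HG (14.4 and 3.92) just outside it. All groups came from HEK293T cells, a laboratory line of human embryonic kidney origin, labelled wildtype and crosslinked with 0.1% formaldehyde for 10 min. The study asked which RNAs are bound by PABPN, the nuclear poly(A) binding protein, and which by PABPC, the cytoplasmic one, with RNA immunoprecipitation (RIP) followed by ribodepleted total RNA sequencing in single-end reads of 75 nt. The 3 groups were input RNA with no antibody, PABPN RIP and PABPC RIP, with 3 libraries each, and every lysate was divided between the antibodies.

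A microRNA begins as a hairpin inside a much longer primary transcript, which is capped, often spliced and polyadenylated by RNA polymerase II. The Microprocessor, a complex of the nuclease DROSHA and its partner DGCR8, cuts the hairpin out in the nucleus. Hairpins in introns can be released without loss of the spliced host RNA, whereas a cut within an exon breaks the mature host RNA. The 5′ seed of the mature microRNA, its bases 2 to 8, directs Argonaute to target messenger RNAs.

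The RefSeq table of microRNAs (GRCh38.p14) placed 65 hairpins on the strand and within the GENCODE release 44 span of 35 of the 40 host genes, 30 of them inside an annotated exon, 3 across an exon edge and 32 in introns. MIR2052HG, MIR22HG, MIR3936HG, MIR4458HG and MIR663AHG had no entry in the table used here, which may be incomplete. A missing entry does not show that a gene holds no microRNA. The sequences below are mature microRNAs of the host genes, chosen for shared seeds or because the host is described in detail, written 5′ to 3′ with the seed in capitals.
The first set holds microRNAs that share the let-7 seed, which came from 5 host genes (MIR100HG, MIR4500HG, MIR99AHG, MIRLET7A1HG and MIRLET7BHG).
hsa-let-7a-5p: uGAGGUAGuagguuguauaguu
hsa-let-7b-5p: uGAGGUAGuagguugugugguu
hsa-let-7c-5p: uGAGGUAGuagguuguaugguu
hsa-let-7d-5p: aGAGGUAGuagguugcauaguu
hsa-let-7f-5p: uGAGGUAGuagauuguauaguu
hsa-miR-4500: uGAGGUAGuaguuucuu
The second set shows seeds shared between MIR181A1HG and MIR181A2HG, and between MIR100HG and MIR99AHG.
hsa-miR-181a-5p: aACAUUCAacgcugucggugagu
hsa-miR-181b-5p: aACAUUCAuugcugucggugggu
hsa-miR-100-5p: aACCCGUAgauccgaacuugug
hsa-miR-99a-5p: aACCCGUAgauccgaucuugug
The miR-17 cluster of MIR17HG and the miR-302 cluster of MIR302CHG each held a microRNA with the seed of miR-92a.
hsa-miR-17-5p: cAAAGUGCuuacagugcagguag
hsa-miR-19b-3p: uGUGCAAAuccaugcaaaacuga
hsa-miR-92a-3p: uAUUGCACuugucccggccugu
hsa-miR-367-3p: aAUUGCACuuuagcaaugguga
hsa-miR-302a-3p: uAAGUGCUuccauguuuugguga
The last set belongs to other host genes with values in every library given in the text.
hsa-miR-23a-3p: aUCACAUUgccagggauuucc
hsa-miR-27a-3p: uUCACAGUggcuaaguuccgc
hsa-miR-24-3p: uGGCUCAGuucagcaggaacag
hsa-miR-503-5p: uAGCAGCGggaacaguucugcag
hsa-miR-210-3p: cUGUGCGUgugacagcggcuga
hsa-miR-34a-5p: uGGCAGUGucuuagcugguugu
hsa-miR-193b-3p: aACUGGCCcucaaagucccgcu
hsa-miR-31-5p: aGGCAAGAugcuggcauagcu
hsa-miR-29c-3p: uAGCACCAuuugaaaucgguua
hsa-miR-1915-3p: cCCCAGGGcgacgcggcggg
hsa-miR-4453: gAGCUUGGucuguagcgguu

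Whole reads in each of the 9 libraries were worked out from the digits of the deposited means and were determined for 32 of the 40 host genes and for 12592 of the 18661 genes with a mean above 10 in both tables. Libraries are named A, B and C within a group by falling size factor, since no recovered library could be tied to a replicate number. Normalized reads are whole reads divided by the size factor, and the size factors lay between 0.670 and 1.13 on one common scale. Input A, PABPN C and PABPC A deviated from their groups in the same way across 2658 genes (Pearson r of their log deviations between 0.55 and 0.76), so results that rest on them are given without them as well. The HEK293T markers NEFM, NEFL, VIM, KRT18, LIN28B and PAX2 were above the limit in both tables, and of the markers of other cell types PTPRC, ALB and CDH5 were below it while COL1A1, a collagen of fibroblasts, had means of 455 and 320.2. COL1A1 was called higher in both RIPs, at 1.00 in PABPN RIP and 0.54 in PABPC RIP, and its part in the results was not tested. A gene was called when limma gave an adjusted p of at most 0.01 and a log2 difference beyond 0.5 in either direction, over the 12592 genes tested. The median log2 difference of those genes was 0.07 for PABPN RIP over input, -0.06 for PABPC RIP over input and 0.41 for PABPN RIP over PABPC RIP. Recomputed size factors moved these medians to -0.19, 0.03 and 0.07, so a small difference is best read against them. The libraries of a group came from independent biological replicates per the study. Without input A, PABPN C and PABPC A the host genes called were 9 higher (MIRLET7BHG gained a call and MIR194-2HG lost one) and 2 lower (MIR325HG beside MIR663AHG) in PABPN RIP over input, 6 higher (with MIR22HG at 0.62 and MIR4733HG at 1.01 among them) and 20 lower in PABPC RIP over input, and 25 higher and 1 lower in PABPN RIP over PABPC RIP. Among the 12592 genes tested, 2443 and 1224, 4077 and 4410, and 5398 and 3274 were called in the same setting. In bulk lysate, the reads of an RNA do not tell how many of the cells carried it.

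In the PABPC RIP most of the 32 host genes were lower than in input. Of them, 20 were called lower (62.5%, against 34.3% of all genes tested and 1774 of the 3551 other lncRNAs tested) and 4 were called higher (12.5%, against 31.1% and 15.4%). The median log2 difference was -1.98 over the 32 host genes, -0.90 over the other lncRNAs and -0.06 over all genes tested. The 3 PABPC RIP libraries all lay below the 3 input libraries for 21 host genes and all above them for 5, where 40.7% and 38.4% of all genes did so. The fold of the 20 called lower ran from 1.56 to 33.7. The library kit kept the strand, but the strand setting of the counting is not given in the sources used here. The authors took stretches shared by overlapping genes out of the annotation, without saying whether this covered genes on opposite strands. Where such a stretch was kept, reads of a host gene and of a gene on the other strand may have been counted together. GENCODE places a protein coding gene on the same strand within MIR31HG (IFNA2 and IFNE) and MIR100HG (BLID). These counts describe the host genes that passed the limit on the mean and whose reads were determined, not every microRNA host gene, and no test was made between the sets.

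The host genes of miR-181, a microRNA family known from lymphocyte development, were among the lowest. MIR181A1HG (chr1:198777861-198937471, minus strand) had 2884, 3340.5 and 3391 normalized reads in input A, B and C, 2864, 2999.97 and 2746 in the PABPN RIP libraries and 70.9, 126 and 94.1 in the PABPC RIP libraries. The PABPC RIP libraries all lay far below the other 6, which overlapped with one another. MIR181A1HG was 33.7-fold lower in PABPC RIP than in input, a log2 difference of -5.07 ± 0.17 (SE, limma adjusted p = 2.71e-10), the lowest of the 32. MIR181A2HG (chr9:124658412-124698635, plus strand), which carries a second copy of miR-181a in an intron, had 865, 790.3 and 664 normalized reads in input A, B and C, 982, 926 and 1046 in the PABPN RIP libraries and 65.7, 65.1 and 65.7 in the PABPC RIP libraries. The PABPC RIP libraries agreed within 1 normalized read of each other and lay below all other libraries. Its difference in PABPC RIP over input was -3.54 ± 0.12 (SE, limma adjusted p = 3.66e-10).

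MIR31HG (chr9:21380073-21559891, minus strand), the host of miR-31 on the short arm of chromosome 9, had 2062, 2324 and 2391 normalized reads in input A, B and C, 1914, 1944 and 1868 in the PABPN RIP libraries and 111, 130.1 and 169 in the PABPC RIP libraries. PABPC RIP was below input in every library, with a log2 difference of -4.06 ± 0.14 (SE, limma adjusted p = 3.3e-10), and the PABPN RIP libraries lay slightly below input without being called. MIR325HG (chrX:76656866-77014532, minus strand), in which RefSeq places miR-384, had 432, 319 and 382 normalized reads in input A, B and C, 214, 234 and 310.1 in the PABPN RIP libraries and 21.9, 21.2 and 26.9 in the PABPC RIP libraries. The 3 groups did not overlap, with input highest and PABPC RIP lowest. Its log2 difference was -3.98 ± 0.19 (SE, limma adjusted p = 3.72e-09) in PABPC RIP and -0.59 ± 0.19 (SE, limma adjusted p = 0.0253) in PABPN RIP, where the call was missed but made without PABPN C, at -0.74 (limma adjusted p = 0.00873).

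MIR2052HG (chr8:74599775-74823313, plus strand) had the most reads in input among the 32. MIR2052HG had 4119, 3666 and 3843 normalized reads in input A, B and C, 3265, 3386 and 4003 in the PABPN RIP libraries and 266, 263 and 266 in the PABPC RIP libraries. PABPC RIP stood below both other groups, with a log2 difference from input of -3.87 ± 0.09 (SE, limma adjusted p = 3.89e-11). MIR29B2CHG (chr1:207760650-207879115, minus strand), whose miR-29b and miR-29c are known to repress collagen messenger RNAs, had 3476, 3554 and 3947 normalized reads in input A, B and C, 3803, 3818 and 3459 in the PABPN RIP libraries and 375, 425 and 414 in the PABPC RIP libraries. PABPN RIP overlapped with input here, and PABPC RIP was lower by 9.04-fold, at -3.18 ± 0.09 (SE, limma adjusted p = 7.76e-11). MIR4500HG (chr13:87427214-87674235, minus strand), the intronic host of miR-4500 with its let-7 seed, had 1139, 998 and 1036 normalized reads in input A, B and C, 1007, 1083 and 1373 in the PABPN RIP libraries and 136, 187 and 187 in the PABPC RIP libraries. PABPC RIP was again lowest, at -2.65 ± 0.15 (SE, limma adjusted p = 1.8e-08).

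MIRLET7BHG (chr22:46053869-46113928, plus strand), which holds let-7a-3 and let-7b in exons near its 3′ end, had 1060.0, 1176 and 1286 normalized reads in input A, B and C, 2579, 2324 and 1125 in the PABPN RIP libraries and 251, 222 and 266 in the PABPC RIP libraries. All PABPC RIP libraries were below input, with a log2 difference of -2.25 ± 0.24 (SE, limma adjusted p = 4.24e-06). In PABPN RIP the libraries A and B lay above input, while C, the library that deviated with input A and PABPC A, fell among the input values. The PABPN RIP difference was 0.69 ± 0.24 (SE, limma adjusted p = 0.0408) with C and was not called, and without C it was 1.06 (limma adjusted p = 5.54e-05) and called. MIR3936HG (chr5:132311285-132370170, minus strand) had 1238, 1004 and 1141 normalized reads in input A, B and C, 1168, 1182 and 1607 in the PABPN RIP libraries and 334, 349 and 279 in the PABPC RIP libraries. PABPC RIP was lower than input in each library, at -1.81 ± 0.14 (SE, limma adjusted p = 2.65e-07).

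The other host genes called lower in PABPC RIP were MIR100HG, MIR4300HG, MIR3659HG, MIR4527HG, MIR217HG, MIR3681HG, MIR193BHG, MIR34AHG, MIR9-1HG, MIR23AHG and MIR762HG. MIR100HG (chr11:122028325-122556721, minus strand), which carries miR-100, let-7a-2 and miR-125b-1 in introns, fell from 197 ± 26.8 (SD, n = 3) normalized reads in input to 16.4 ± 4.21 (SD, n = 3), a log2 difference of -3.56 ± 0.20 (SE, limma adjusted p = 1.64e-08). Whole reads were 230, 156 and 178 in input and 14, 16 and 9 in PABPC RIP. MIR217HG, the host of the pancreatic microRNAs miR-216 and miR-217, had 8, 2 and 2 reads in the PABPC RIP libraries, so its fold of 5.67 rests on few reads. MIR4300HG, MIR3659HG, MIR4527HG and MIR3681HG lay at -3.26, -3.18, -2.83 and -2.31, with at most 388 normalized reads in an input library. MIR4527HG had 8, 9 and 6 whole reads in the PABPC RIP libraries and MIR3681HG had 11, 7 and 10, so their folds also rest on few reads. MIR9-1HG, a host of the neural miR-9, was less far down, at -0.96 ± 0.22 (SE, limma adjusted p = 0.00166).

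The 4 host genes called higher in PABPC RIP were MIR1915HG, MIR210HG, MIR4458HG and MIR4453HG. MIR1915HG (chr10:21490272-21497260, minus strand), with miR-1915 in an intron, had 243, 215 and 220.1 normalized reads in input A, B and C, 315, 289.7 and 321 in the PABPN RIP libraries and 954, 929.6 and 962 in the PABPC RIP libraries. PABPC RIP lay above every other library, 4.19-fold over input, at 2.07 ± 0.11 (SE, limma adjusted p = 7.06e-09). MIR210HG (chr11:565657-568457, minus strand), the host of the hypoxia-induced miR-210, had 44.6, 34.7 and 35.8 normalized reads in input A, B and C, 138, 144 and 174 in the PABPN RIP libraries and 114, 90.3 and 68.7 in the PABPC RIP libraries. Both RIPs lay above input in every library, and PABPC RIP over input was 1.21 ± 0.21 (SE, limma adjusted p = 0.000227). MIR4458HG (chr5:8450701-8486930, plus strand) had 189.9, 183 and 169.8 normalized reads in input A, B and C, 334, 295 and 312 in the PABPN RIP libraries and 441, 384 and 423 in the PABPC RIP libraries. Here too the groups did not overlap, with PABPC RIP highest, at 1.20 ± 0.12 (SE, limma adjusted p = 1.82e-06). MIR4453HG was higher in PABPC RIP by 1.63-fold.

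**Figure D1:**
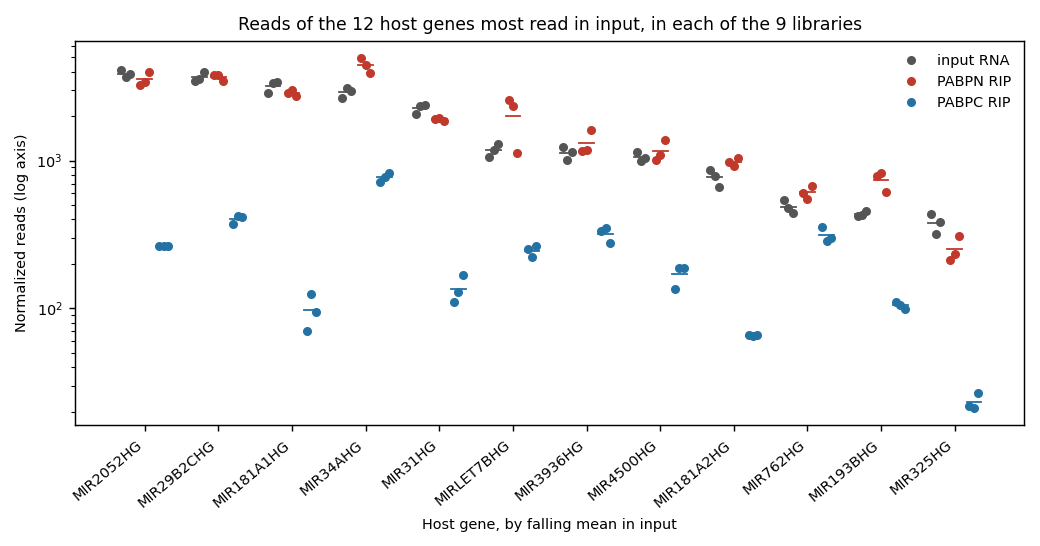
Normalized reads (log axis) of the 12 host genes with the highest mean in input among the 32 whose reads were determined, with 1 point per library and a bar at the mean of each group of 3 libraries. The PABPC RIP points lie below the input points in all 12 genes, and MIRLET7BHG has 1 PABPN RIP point, library C, apart from the other PABPN RIP points at 1125.

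In the PABPN RIP fewer host genes were called against input, and those called were mostly higher. Of the 32, 9 were called higher (28.1%, against 15.9% of all genes tested and 16.7% of the other lncRNAs) and 1 was called lower (3.12%, against 7.93% and 1.46%). The median log2 difference was 0.22 over the host genes and over the other lncRNAs, and 0.07 over all genes tested. With recomputed size factors 6 host genes were called higher and 4 lower (MIR325HG, MIR3681HG, MIR4527HG and MIR663AHG), and the 1999 higher and 999 lower calls among all genes became 1213 and 2197. The median of the host genes turned to -0.04 under that scaling, while that of all genes moved to -0.19. The 3 PABPN RIP libraries all lay above input for 12 host genes and all below for 7, where 30.9% and 22.1% of all genes did so. PABPN RIP and PABPC RIP share their input libraries, so their differences from input are not independent of each other.

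The highest was MIR210HG, 3.93-fold over input at 1.98 ± 0.21 (SE, limma adjusted p = 2.42e-05). MIR503HG (chrX:134543119-134546642, minus strand), a host beside the cluster of miR-503 and miR-424, had 165, 157 and 155 normalized reads in input A, B and C, 516, 594 and 735 in the PABPN RIP libraries and 159.6, 161 and 157 in the PABPC RIP libraries. Every PABPN RIP library was above all other libraries, and PABPC RIP and input overlapped. The log2 difference was 1.93 ± 0.14 (SE, limma adjusted p = 1.36e-06) in PABPN RIP, and -0.0007 ± 0.14 (SE, limma adjusted p = 0.997) in PABPC RIP. MIR4453HG (chr4:152536264-152539263, plus strand), a gene of 1 annotated exon with miR-4453 inside it, had 203, 249.7 and 218 normalized reads in input A, B and C, 844, 786 and 825 in the PABPN RIP libraries and 387, 317 and 388 in the PABPC RIP libraries. PABPN RIP was highest in each library, at 1.87 ± 0.12 (SE, limma adjusted p = 6.7e-07).

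MIR23AHG (chr19:13823880-13842928, minus strand), the transcript of miR-23a, miR-27a and miR-24-2 with the hairpins in its single exon, had 169.6, 189 and 175 normalized reads in input A, B and C, 661, 596 and 588 in the PABPN RIP libraries and 102, 98.3 and 118 in the PABPC RIP libraries. PABPN RIP lay above input and PABPC RIP below it, and no library of one group reached another. The log2 difference was 1.79 ± 0.13 (SE, limma adjusted p = 1.2e-06) in PABPN RIP and -0.75 ± 0.13 (SE, limma adjusted p = 0.000192) in PABPC RIP. MIR34AHG (chr1:9148011-9198906, minus strand), the host of the p53 target miR-34a, had 2672, 3077 and 2954 normalized reads in input A, B and C, 4926, 4414 and 3889 in the PABPN RIP libraries and 716, 781 and 827 in the PABPC RIP libraries. The order of the groups was the same, at 0.60 ± 0.10 (SE, limma adjusted p = 0.000604) and -1.90 ± 0.10 (SE, limma adjusted p = 9.32e-09). MIR193BHG (chr16:14301389-14331067, plus strand), with miR-193b and miR-365a in introns, had 422, 431 and 457 normalized reads in input A, B and C, 784, 819.8 and 609.5 in the PABPN RIP libraries and 111, 106 and 98.5 in the PABPC RIP libraries. All PABPN RIP libraries lay above input and all PABPC RIP libraries below it, with differences of 0.74 ± 0.13 (SE, limma adjusted p = 0.000905) and -2.05 ± 0.13 (SE, limma adjusted p = 4.73e-08). With recomputed size factors the PABPN RIP calls of MIR34AHG and MIR193BHG were missed, at 0.34 (limma adjusted p = 0.0525) and 0.48 (limma adjusted p = 0.0163), as was that of MIR194-2HG.

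MIR22HG (chr17:1711447-1717174, minus strand), a host RNA induced by many stresses, had 94, 132 and 128 normalized reads in input A, B and C, 505, 402 and 277 in the PABPN RIP libraries and 134, 186 and 218 in the PABPC RIP libraries. PABPN RIP was above input in each library, with C the lowest of the 3, at 1.71 ± 0.24 (SE, limma adjusted p = 0.000182), and PABPC RIP over input was 0.58 ± 0.24 (SE, limma adjusted p = 0.0432). MIR4458HG was called higher in PABPN RIP as well, at 0.79 ± 0.12 (SE, limma adjusted p = 0.000264). MIR194-2HG (chr11:64888458-64893455, minus strand), which carries miR-192 and miR-194 in exons, had 23.3, 32.6 and 21.2 normalized reads in input A, B and C, 44.2, 62 and 49.6 in the PABPN RIP libraries and 17.7, 25.2 and 17.9 in the PABPC RIP libraries. PABPN RIP was highest in every library, at 1.01 ± 0.27 (SE, limma adjusted p = 0.00966), just past the threshold. Its call was missed without any 1 of input A, input C, PABPN A, PABPN B, PABPN C or PABPC C, at 0.88 to 1.12 (limma adjusted p = 0.0116 to 0.0502). The call was also missed with centring (0.94, limma adjusted p = 0.0140), recomputed size factors (0.75, limma adjusted p = 0.0412), a pseudocount of 0.1 (1.02), no filter or a filter on the input mean (both 1.01), and without input A, PABPN C and PABPC A together (0.98, limma adjusted p = 0.0166). MIR1915HG, at 0.45 ± 0.11 (SE, limma adjusted p = 0.00522), missed the limit on the size of the difference, and passed it without input A, at 0.50.

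MIR663AHG was the 1 host gene called lower in PABPN RIP. MIR663AHG (chr20:26167817-26251546, minus strand), beside the centromere of chromosome 20 in sequence with near copies elsewhere in the genome, had 32, 34.7 and 46.9 normalized reads in input A, B and C, 6.19, 0 and 4.86 in the PABPN RIP libraries and 10.4, 3.98 and 13.4 in the PABPC RIP libraries. Whole reads were 33, 32 and 42 in input, 7, 0 and 5 in PABPN RIP and 10, 3 and 9 in PABPC RIP. Both RIPs lay below input in every library, at -3.85 ± 0.83 (SE, limma adjusted p = 0.00314) and -2.10 ± 0.83 (SE, limma adjusted p = 0.0362). The PABPN RIP call was missed without input B, at -3.91 (limma adjusted p = 0.0123), without input C, at -3.69 (limma adjusted p = 0.0165), and with a pseudocount of 0.1, at -4.68 (limma adjusted p = 0.0117). The PABPC RIP difference, not called here, was called with the 6 libraries of that comparison alone (limma adjusted p = 0.00156), with precision weights (limma adjusted p = 0.00621), with a pseudocount of 2 (limma adjusted p = 0.00483) and without PABPN B (limma adjusted p = 0.00122), at -1.91 to -2.10. Reads that fit several copies may have been left out or shared by the counting, so the gene of origin is uncertain.

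**Figure D2:**
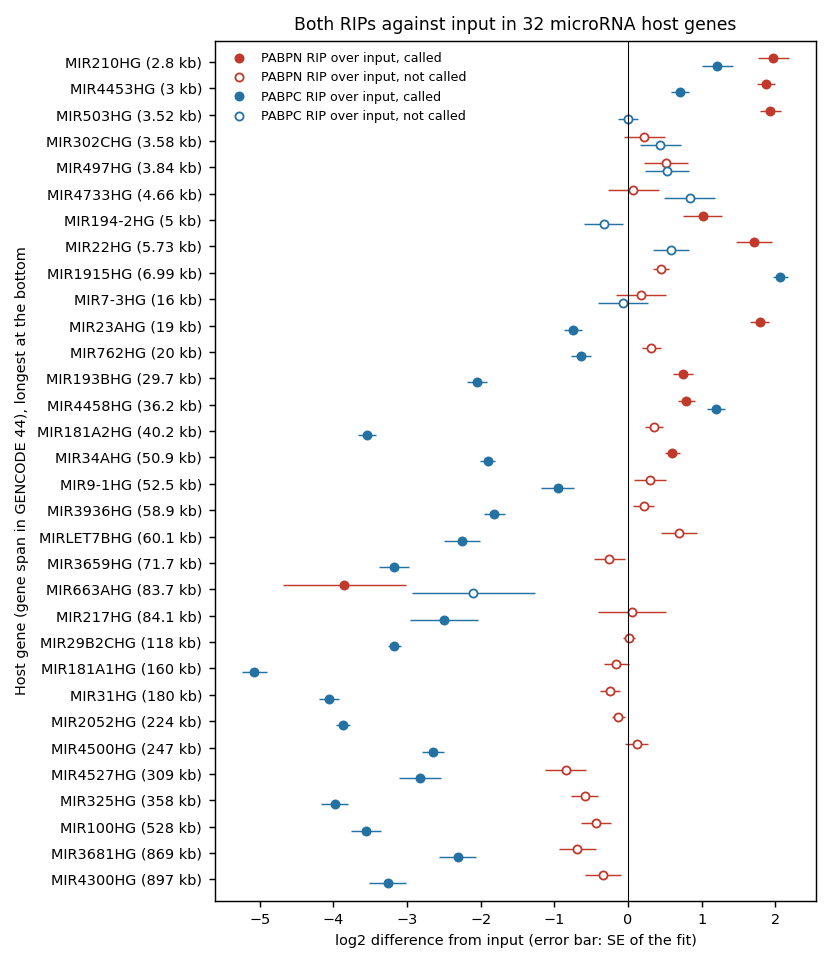
The log2 difference of PABPN RIP (red) and PABPC RIP (blue) from input for the 32 host genes, ordered by gene span with the longest at the bottom. Points are fitted differences, bars their standard errors, and filled points are called. All 10 host genes longer than 100 kb have a filled blue point between -5.07 and -2.31, and the red points of the same genes are open and lie between -0.85 and 0.12.

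The direct difference of the RIPs came from the same fit. PABPN RIP was called higher than PABPC RIP for 25 host genes (78.1%, against 41.7% of all genes tested and 60.2% of the other lncRNAs), and lower for MIR1915HG (3.12%, against 25.6% and 7.83%). The 3 PABPN RIP libraries all lay above the 3 PABPC RIP libraries for 25 host genes and all below for 3, where 48.9% and 31.2% of all genes did so. Centring on the median of all genes, or recomputed size factors, left 23 host genes called higher and raised those called lower to 3 (MIR1915HG, MIR4458HG and MIR4733HG). The 5245 higher and 3228 lower calls among all genes became 3936 and 4258 with centring, and 4198 and 4094 with recomputed size factors. The median log2 difference was 2.004 over the host genes, 1.30 over the other lncRNAs and 0.41 over all genes tested. MIR181A1HG was highest at 4.92 ± 0.17 (SE, limma adjusted p = 3.04e-10), followed by MIR181A2HG at 3.90 ± 0.12 (SE, limma adjusted p = 1.95e-10) and MIR31HG at 3.82 ± 0.14 (SE, limma adjusted p = 4.33e-10). The lowest of those called higher were MIR22HG at 1.12 ± 0.24 (SE, limma adjusted p = 0.00106), MIR762HG at 0.96 ± 0.13 (SE, limma adjusted p = 3.14e-05) and MIR210HG at 0.76 ± 0.21 (SE, limma adjusted p = 0.00571).

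MIR762HG (chr16:30875222-30895220, plus strand), with miR-762 in an intron, had 545, 479 and 444 normalized reads in input A, B and C, 608, 547 and 673 in the PABPN RIP libraries and 358, 286 and 299 in the PABPC RIP libraries. PABPN RIP was above input by less than the size asked for a call, PABPC RIP was below input, and the RIPs did not overlap. The MIR210HG call rests on a narrow margin, since it was missed without PABPC B (0.77, limma adjusted p = 0.0159), PABPC C (0.58, limma adjusted p = 0.0276), PABPN A (0.83, limma adjusted p = 0.0109), PABPN B (0.80, limma adjusted p = 0.0144) or PABPN C (0.66, limma adjusted p = 0.0236), and with centring (0.35) or recomputed size factors (0.42). MIR22HG was missed under the same scalings, at 0.71 and 0.78. MIR1915HG, at -1.62 ± 0.11 (SE, limma adjusted p = 4.09e-08), had all 3 PABPC RIP libraries above all 3 PABPN RIP libraries. MIR4458HG lay on the same side, at -0.41 ± 0.12 (SE, limma adjusted p = 0.00747), short of the size asked for, and was called with centring and with recomputed size factors, at -0.82 and -0.75.

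MIR497HG, MIR302CHG, MIR7-3HG and MIR4733HG were called in no comparison. MIR497HG, a host of the miR-15 relatives miR-195 and miR-497, had 26.9 ± 9.42 (SD, n = 3), 37.9 ± 8.8 (SD, n = 3) and 38.3 ± 7.91 (SD, n = 3) normalized reads in input, PABPN RIP and PABPC RIP. MIR302CHG, the host of the miR-302 cluster of pluripotent cells, had 17.4 ± 3.59 (SD, n = 3), 20.1 ± 0.536 (SD, n = 3) and 23.7 ± 4.51 (SD, n = 3). The 3 groups overlapped in both genes. MIR7-3HG, with 13.4 ± 1.97 (SD, n = 3) in input, overlapped in the same way. MIR4733HG was at 0.84 ± 0.35 (SE, limma adjusted p = 0.0428) in PABPC RIP, and was called there without input A, at 1.20 (limma adjusted p = 0.00542). Its PABPC RIP libraries all lay above its PABPN RIP libraries, a difference that was called with centring, at -1.18, and with recomputed size factors, at -1.11.

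**Figure D3:**
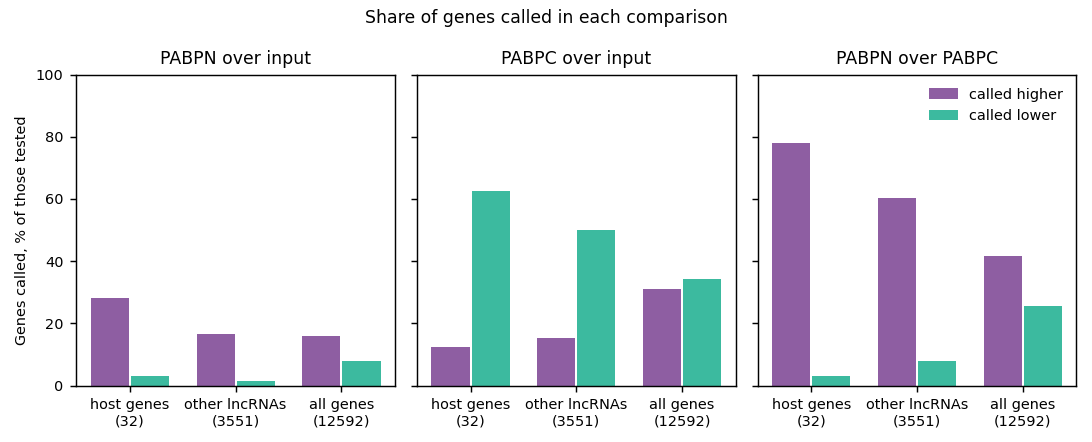
Share of genes called higher (purple) or lower (green) in each comparison, in percent of those tested, for the 32 host genes, 3551 other lncRNAs and all 12592 genes. The host genes have the highest share called lower in PABPC RIP (62.5%) and the highest share called higher in PABPN RIP over PABPC RIP (78.1%) of the 3 sets shown, with no test between the sets.

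Reads per library were not determined for MIR17HG, MIR222HG, MIR4435-2HG, MIR4713HG, MIR646HG, MIR924HG, MIR99AHG and MIRLET7A1HG, which had more reads than most of the 32. All of them but MIRLET7A1HG had a mean above 6000 in the PABPN table, the limit beyond which solving was not attempted. The deposited means of these genes still fix which RIP was higher on the scale of the deposited size factors, because input enters both tables. The mean of PABPN RIP was above that of PABPC RIP in all 8 of them, and in 34 of the 40 host genes against 55.4% of the 18661 genes and 79.8% of the 3666 other lncRNAs above the limit. For MIR17HG, the host of the growth promoting miR-17 cluster, with 6 exonic hairpins, PABPN RIP exceeded PABPC RIP by 12291 normalized reads and by at least 2.65-fold. Its PABPN RIP mean was also at least 1.65-fold that of input, since input could not exceed 7402 normalized reads. For the let-7 hosts MIRLET7A1HG and MIR99AHG the lower bounds of PABPN RIP over PABPC RIP were 1.98-fold and 1.81-fold, and for MIR222HG, the host of miR-221 and miR-222, the bound was 1.84-fold. The bounds were 1.72-fold for MIR924HG, 1.69-fold for MIR4713HG, 1.68-fold for MIR646HG and 1.51-fold for MIR4435-2HG. These sides and bounds were not recomputed with other size factors. Among all genes tested, recomputed size factors moved the median of PABPN RIP over PABPC RIP from 0.41 to 0.07. The median of PABPN RIP over input moved from 0.07 to -0.19. No error can be given for these bounds, and PABPC RIP against input was not determined in the 8 genes.

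The host genes differed widely in span, from 2.80 kb for MIR210HG to 897 kb for MIR4300HG. The reads were counted over introns and exons together, so spliced and unspliced host RNA were measured as one. Across the 32 host genes the log2 difference of PABPC RIP from input fell with span (Spearman rho = -0.85), and so did that of PABPN RIP (rho = -0.82). Over the 3528 other lncRNAs with a span rho was -0.60 and -0.41, and over the 12515 genes of any kind with a span it was -0.55 and -0.25. These correlations are across genes, which share the same 9 libraries and are not replicates, and spans came from GENCODE release 44 rather than from the gene models the reads were counted on. All 10 host genes longer than 100 kb were called lower in PABPC RIP, as were 89.3% of the 656 other lncRNAs of that span and 82.1% of the 2039 genes of that span. None of the 9 host genes shorter than 10 kb was called lower, where 22.7% of the 1400 other lncRNAs and 14.5% of the 3754 genes of that span were. Among those 9, 5 were called higher in PABPN RIP and 3 in PABPC RIP, where 934 and 2047 of the 3754 genes and 384 and 429 of the 1400 other lncRNAs of that span were. The 13 of 10 to 100 kb lay between, with 10 called lower in PABPC RIP (76.9%, against 58.2% of other lncRNAs and 30.4% of genes in that range). Base composition and depth per gene were not compared here.

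**Figure D4:**
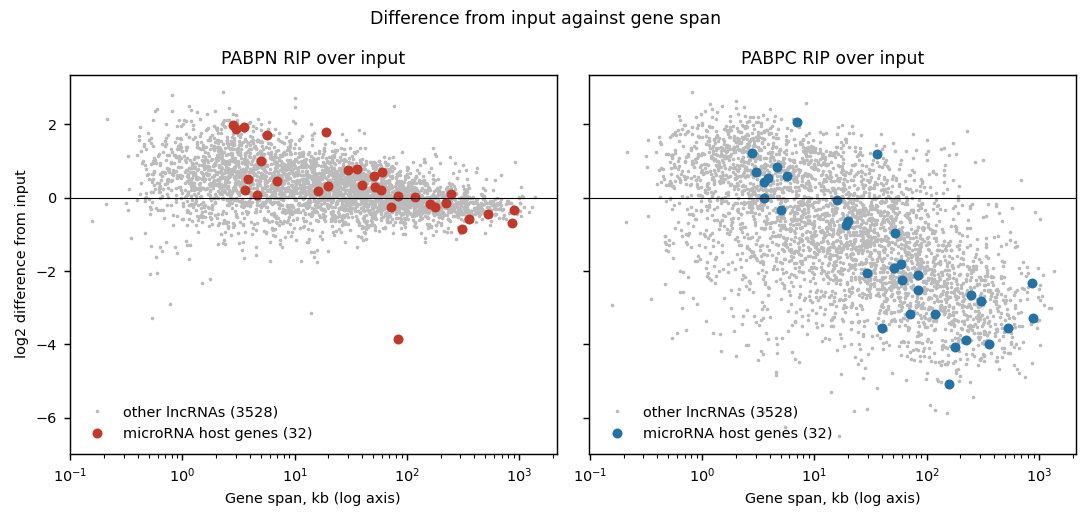
The log2 difference from input of PABPN RIP (left) and PABPC RIP (right) against gene span in kb (log axis), for the 32 host genes (coloured) and 3528 other lncRNAs (grey). In PABPC RIP the host genes run from 2.07 for MIR1915HG, at 6.99 kb, to -5.07 for MIR181A1HG, at 159.6 kb, and in PABPN RIP MIR663AHG lies alone at -3.85.

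The place of the hairpin moved with span. Of the 8 tested host genes with a hairpin inside an exon, 4 were called lower in PABPC RIP and 1 was called higher, with a median log2 difference of -0.54 and a median span of 12.02 kb. Of the 17 with hairpins in introns alone, 13 were called lower and 2 higher, with a median of -2.65 and a median span of 84.1 kb. Of all genes tested, 34.3% were called lower and 31.1% higher in PABPC RIP. In PABPN RIP 4 of the 8 exonic hosts and 2 of the 17 intronic hosts were called higher, against 15.9% of all genes tested, with medians of 0.65 and 0.06, and the sign of the intronic median is not settled since recomputed size factors lowered all genes by more than its size. The 2 host genes with a hairpin across an exon edge, MIR503HG and MIR9-1HG, were at 1.93 and 0.30 in PABPN RIP. The 5 host genes with no hairpin entry are in none of these groups. Of these 5, 2 were called lower and 1 higher in PABPC RIP, and 2 higher and 1 lower in PABPN RIP. Of all genes tested, 7.93% were called lower in PABPN RIP. The counts by place may thus differ with a fuller list of hairpins. The part of span in the difference between exonic and intronic hosts was not tested.

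Hosts that share a seed were read side by side. For the let-7 seed, the PABPC RIP differences were -2.25 for MIRLET7BHG, -2.65 for MIR4500HG and -3.56 for MIR100HG. All 3 were called lower, as were 34.3% of all genes tested. MIR4500HG and MIR100HG are longer than 100 kb, a span at which 89.3% of the other lncRNAs were called lower. The PABPN RIP differences of the same genes were 0.69, 0.12 and -0.43 with none called, where 15.9% of all genes tested were called higher and 7.93% lower. Without PABPN C, MIRLET7BHG was called higher, at 1.06 (limma adjusted p = 5.54e-05). For the miR-181 seed the differences were -0.16 for MIR181A1HG and 0.36 for MIR181A2HG in PABPN RIP, again not called, beside -5.07 and -3.54 in PABPC RIP. Members of a seed group are separate genes and not replicates of each other.

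Genes of the microRNA pathway and protein coding genes with intronic microRNAs were looked at beside the host genes, but the reads of most were not determined. Of 57 genes on these lists, 5 were tested, 1 of export and dicing and 4 protein coding hosts. In PABPN RIP 1 of the 5 was called higher and none lower, and in PABPC RIP 3 were called higher and 1 lower, where 15.9% and 7.93%, and 31.1% and 34.3%, of all genes tested were. TARBP2, a partner of DICER1, was called higher in PABPC RIP at 1.74, and TLN2, a talin gene that hosts miR-190a, was lowest there at -1.96 and called lower. In PABPN RIP DALRD3, a host of miR-191 and miR-425, was highest at 0.65 and called higher, and CTDSP2, a phosphatase gene that hosts miR-26a-2, was lowest at -0.37 and not called. TLN2 was also highest and CTDSP2 lowest in PABPN RIP over PABPC RIP, at 1.74 and -1.94, both called. No listed gene was called in opposite directions by the RIPs. The counts that follow hold on the scale of the deposited size factors. From the deposited means alone, the PABPN RIP mean was above that of PABPC RIP in 6 of 13 genes of the Microprocessor and its cofactors, in 1 of 5 of export and dicing, in 6 of 7 of the Argonaute complex, in 3 of 5 of precursor control and in 12 of 23 protein coding hosts, against 55.4% of all 18661 genes.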

How the data were processed

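RNA of HEK293T cells was sequenced by the authors in 9 libraries, aligned with STAR to hg38 and counted with featureCounts 2.0.2 over an annotation made from GENCODE and NCBI genes, with introns and exons counted together and stretches shared by overlapping genes taken out. The authors also took out genes into which an upstream gene was read through. The signal column the authors deposited for each of the 2 tables is the mean, over 3 input and 3 RIP libraries, of the reads per gene after scaling by DESeq2 size factors. The comparison columns of the tables (log2 fold change, standard error, Wald score, p-value and adjusted p) hold the authors' own tests and were not used, nor was the gene length in bases used in a test.

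Each deposited mean carries 15 significant digits and is a sum of whole reads times the worth of 1 read in each library. The worth of a read was found from the lowest values, and the whole reads of the 9 libraries were then solved for each gene from both tables together. The 3 libraries present in both tables are input. A gene was kept when 1 solution held at least 95% of the weight. For genes with a larger mean of 1000 to 6000, the weight drew on the replicate deviations seen in lower genes. The replicate spread of such genes is thus not independent of the solving, and their standard errors may be too small. Among the host genes solved, MIR29B2CHG (share 0.975) and MIR34AHG (share 0.980) held the lowest share of the weight. A share of at least 95% held for 12592 of 18661 genes (67.5%) with a mean above 10 in both tables. It held for all genes whose larger mean was below 1000 and for 49.5% of those from 2000 to 3000. From 3000 to 4000 it held for 130 of 1257 genes (10.3%), and from 4000 to 6000 for 0.8%. MIR2052HG, MIR29B2CHG, MIR34AHG and MIR181A1HG had a larger mean from 3000 to 4000. Genes with a larger mean above 6000 were not attempted. The reads recovered came to 5662712 to 7911001 per library, which is part of each library and not its depth. The solving was checked by removing digits, where 99.7% of the genes solved with 13 digits and 99.9% with 14 digits had the reads found with 15. It was also checked on 2000 genes of simulated data, all solved correctly. Both checks drew on genes with a larger mean below 1000. No gene of 1000 to 6000 was itself checked, a range that holds the host genes with the most reads in input. PABPC RIP libraries were put on the scale of the PABPN table through the shared input (factor 0.855).

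Differences were tested with limma 3.58.1 in R 4.3.3 (lmFit and eBayes with a trended prior, two-sided) on log2 of normalized reads plus a pseudocount of 0.5, over all 9 libraries without a replicate block. The p-values were adjusted with the Benjamini-Hochberg method over the 12592 genes. A gene was called at an adjusted p of at most 0.01 and a log2 difference beyond 0.5, as in the study, which also asked for a mean above 50 (here 10, with 50 as an alternative). The fit was tested on simulated data for PABPN RIP over input over 12592 genes, where 98% of genes changed to 0.25-fold, 80% of those to 0.5-fold, 88% of those to 2-fold and 100% of those to 4-fold were called, as was 1 of 12392 unchanged genes. The simulated libraries had independent noise, the same replicate spread for all genes and the size factors of the fit. Real libraries shared deviations and depended on the scaling, so these shares do not give the rate of false calls here. A count model on the recovered reads was not run. Alternatives were other scalings, pseudocounts, filters, limits, precision weights and leaving out libraries. Leaving out input A, PABPN C and PABPC A together, and asking for at least 90% or 99.9% of the weight, were chosen after seeing the data.

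Values in every library are given for the 12 host genes highest in input and for the 3 highest and 3 lowest called in each comparison, and for others chosen after their values were seen. From the lists of microRNA pathway genes and protein coding hosts, the genes named are the highest and the lowest of each comparison and any called in opposite directions. The host genes and lists were chosen with earlier results of these data known. Spans and exons are from GENCODE release 44, matched by gene identifier, and microRNA sequences from RefSeq (GRCh38.p14).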

Additional observations from a re-analysis of the deposited data

How the results depend on the processing

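The 96 log2 differences of the 32 host genes, 60 of them called, gave 1977 alternative values over the other settings. Of these, 1896 kept the direction and the side of the threshold. Some could hardly move, since leaving out a library of one RIP does not change the difference of the other RIP from input. The 6 called values that lost their call in 26 of the alternative values (MIR193BHG, MIR194-2HG, MIR34AHG and MIR663AHG in PABPN RIP over input, MIR210HG and MIR22HG in PABPN RIP over PABPC RIP) kept their direction and are given above. A further 10 uncalled values became called in 19 of the alternative values. Direction turned in 11 uncalled values. In PABPN RIP over input, recomputed size factors gave -0.20 for MIR217HG, -0.25 for MIR29B2CHG, -0.033 for MIR302CHG, -0.046 for MIR3936HG, -0.14 for MIR4500HG, -0.18 for MIR4733HG and -0.078 for MIR7-3HG, and centring gave -0.012 for MIR217HG and -0.054 for MIR29B2CHG. Without input A, PABPN C and PABPC A, MIR217HG was at -0.12 and MIR7-3HG at -0.078. With 1 library left out at a time, the values ran from -0.24 to 0.34 for MIR217HG, -0.022 to 0.070 for MIR29B2CHG, -0.016 to 0.21 for MIR4500HG, -0.19 to 0.43 for MIR4733HG and -0.040 to 0.36 for MIR7-3HG in PABPN RIP over input, -0.20 to 0.16 for MIR497HG in PABPN RIP over PABPC RIP, and -0.018 to 0.024 for MIR503HG and -0.18 to 0.15 for MIR7-3HG in PABPC RIP over input. In PABPC RIP over input, MIR503HG was at 0.054 with centring, 0.086 with recomputed size factors and 0.022 without the 3 libraries, and MIR7-3HG at 0.015 with recomputed size factors. In PABPN RIP over PABPC RIP, MIR7-3HG was at -0.17 with centring and -0.094 with recomputed size factors. The cause was not tested.

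Among all genes, the 1999 higher and 999 lower calls of PABPN RIP over input became 3157 and 1976 at an adjusted p of at most 0.05 with no limit on size, 974 and 365 beyond a log2 difference of 1, and 1213 and 2197 with recomputed size factors. With a mean above 50 in both tables, fewer genes were tested, and the 4316 lower calls of PABPC RIP over input became 2770 and the 5245 higher calls of PABPN RIP over PABPC RIP became 3383. The 1 host gene lower in PABPN RIP over input became 4 at an adjusted p of at most 0.05, 4 with recomputed size factors, 2 without the 3 libraries, 0 with a mean above 50 or a pseudocount of 0.1, and 0 (without input B or input C) to 2 (without PABPN C) when 1 library was left out. The 1 lower in PABPN RIP over PABPC RIP became 2 at an adjusted p of at most 0.05, and 3 with centring or recomputed size factors. The other 257 recomputed counts stayed within 1.5 times. No paired analysis was possible because the recovered libraries carry no replicate number. Genes with a mean above 6000 were not attempted and many below it were not determined, which leaves out the host genes read most. Low reads limit the precision for MIR7-3HG, MIR302CHG, MIR497HG, MIR4733HG, MIR217HG and MIR663AHG, and in PABPC RIP also for MIR4527HG and MIR3681HG.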
